A study of Homo sapiens with 16 samples.

Results

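Pol II and TOP2A peaks are described here at 7 genes of the heat-shock and chaperone system: HSPA1A, HSPA1B, HSPA8, HSP90AB1, DNAJB1, HSPA5 and HSPB1. The genes were chosen by name and placed by their hg19 spans, each taken with 2 kb before the start and 5 kb past the end, and the rule uses no measured value. The 7 windows held 46 of the 87911 Pol II peaks of the control list, 37 of 85990 after 30 min of merbarone, 36 of 81816 after 1 h, and 1 of 1840 TOP2A peaks. Cover was computed for all 7 genes in every list, but the spans of HSPA1A and HSPA1B, which are near copies, could be read only in part.

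The cells were hTERT RPE-1, an immortalised wild-type human retinal pigment epithelial line, held in 0.1% serum for 48 h in every group. Merbarone, which blocks the catalytic cycle of DNA topoisomerase II, was given at 200 uM. RNA polymerase II (Pol II) was mapped by chromatin immunoprecipitation (ChIP-seq) of its largest subunit after 30 min of merbarone (3 libraries), after 1 h (2 libraries) and in control (3 libraries with DMSO vehicle for 30 min and 3 untreated), and topoisomerase II alpha (TOP2A) was mapped in untreated cells (2 libraries). Each condition stands as 1 deposited list of peaks, with vehicle and untreated libraries in the same list, and no vehicle was matched to the 1 h treatment. The lists hold start and end positions only, with no height and no spread between replicates, so no difference between lists could be tested, and read depth is unknown. The lists also differ in their limits, with a smallest Pol II peak of 136 bp in control and 150 bp at 30 min and a still wider one at 1 h, and with 42.8, 47.7 and 58.3 Mb under peaks in that order. The closest gap between Pol II peaks was 1 bp in control and at 30 min and 38 bp at 1 h. Counts and widths of single peaks are therefore not like for like between lists.

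Chaperones of the HSP70 family bind unfolded stretches of other proteins and release them in a cycle driven by ATP. J-domain proteins such as DNAJB1 hand clients to HSP70 and speed its ATP use, HSP90 acts later on selected clients, and small heat-shock proteins such as HSPB1 hold unfolded proteins in solution. Inducible members are switched on by the factor HSF1, which binds repeats of a short motif, the heat shock element. Promoter-proximal pausing of Pol II was first described at the Hsp70 genes of Drosophila, where a polymerase waits just past the start until heat shock releases it. HSPA5 serves the endoplasmic reticulum (ER) and answers mainly to ER stress.

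The promoters are shown because every gene start lay under Pol II, because HSPA1A and HSPA1B are near copies whose reads may be hard to tell apart, and because DNAJB1 and HSPA5 stand for the HSF1-type and ER-type promoters. The sequences are the 250 bases before the RefSeq start, from GRCh38.p14, 5′ to 3′ on the gene's strand. All 7 genes matched RefSeq, and of several RefSeq starts the one that gave the span length nearest to the hg19 span was taken. Capitals mark heat shock element pairs (GAANNTTC or TTCNNGAA), TATA boxes (TATAAA or TATATA) and the ER stress element (CCAAT, then 9 bases, then CCACG), searched on both strands. HSPA1A lies at chr6:31815293-31815542 (+), HSPA1B at chr6:31827488-31827737 (+), DNAJB1 at chr19:14518398-14518647 (-) and HSPA5 at chr9:125241344-125241593 (-).
HSPA1A: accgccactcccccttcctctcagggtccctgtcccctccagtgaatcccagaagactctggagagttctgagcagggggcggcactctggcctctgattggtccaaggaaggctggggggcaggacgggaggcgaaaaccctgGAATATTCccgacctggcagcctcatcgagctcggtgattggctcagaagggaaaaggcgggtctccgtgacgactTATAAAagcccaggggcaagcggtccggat
HSPA1B: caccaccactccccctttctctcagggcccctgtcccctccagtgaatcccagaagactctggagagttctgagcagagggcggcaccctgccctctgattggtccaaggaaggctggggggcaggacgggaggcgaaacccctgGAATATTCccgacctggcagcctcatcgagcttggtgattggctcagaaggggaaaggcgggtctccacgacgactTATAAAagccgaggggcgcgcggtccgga
DNAJB1: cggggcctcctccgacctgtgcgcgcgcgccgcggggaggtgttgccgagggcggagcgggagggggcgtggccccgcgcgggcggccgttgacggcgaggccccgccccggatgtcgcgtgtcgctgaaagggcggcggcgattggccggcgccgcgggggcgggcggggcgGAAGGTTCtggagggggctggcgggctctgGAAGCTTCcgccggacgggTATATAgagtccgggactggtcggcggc
HSPA5: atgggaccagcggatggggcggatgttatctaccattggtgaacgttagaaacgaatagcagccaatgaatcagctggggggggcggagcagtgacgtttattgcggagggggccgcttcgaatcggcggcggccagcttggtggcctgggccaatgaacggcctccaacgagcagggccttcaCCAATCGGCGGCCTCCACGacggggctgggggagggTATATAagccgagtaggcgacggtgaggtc

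The HSPA1A and HSPA1B promoters were identical at 235 of 249 aligned bases, with a longest shared run of 49 bases. Among the other 20 pairs of members the longest shared run was 11 bases. The pair GAANNTTC stood in 5 of the 7 promoters, against 5.78% of 35116 RefSeq promoters of the same length, and TTCNNGAA in 1 of 7, against 6.62%. HSPA8 carried the most, with 4 pairs in 2 places, where the pairs overlap as runs of 3 units, a form held by 0.441% of all promoters. DNAJB1 had 2 pairs, beginning 77 and 47 bp before the start, and HSPA1A, HSPA1B and HSPB1 had 1 each. HSP90AB1 and HSPA5 had none of these letters in the window. The ER stress element was found in HSPA5 alone among the 7, 66 bp before the start, and in 0.074% of all promoters. TATAAA stood in 2 of 7 against 10.7%, TATATA in 3 of 7 against 3.73%, and CCAAT (which is also the first part of the ER stress element) in 5 of 7 against 32%. A match of letters is a description of sequence and not of a bound factor.

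**Figure D1:**
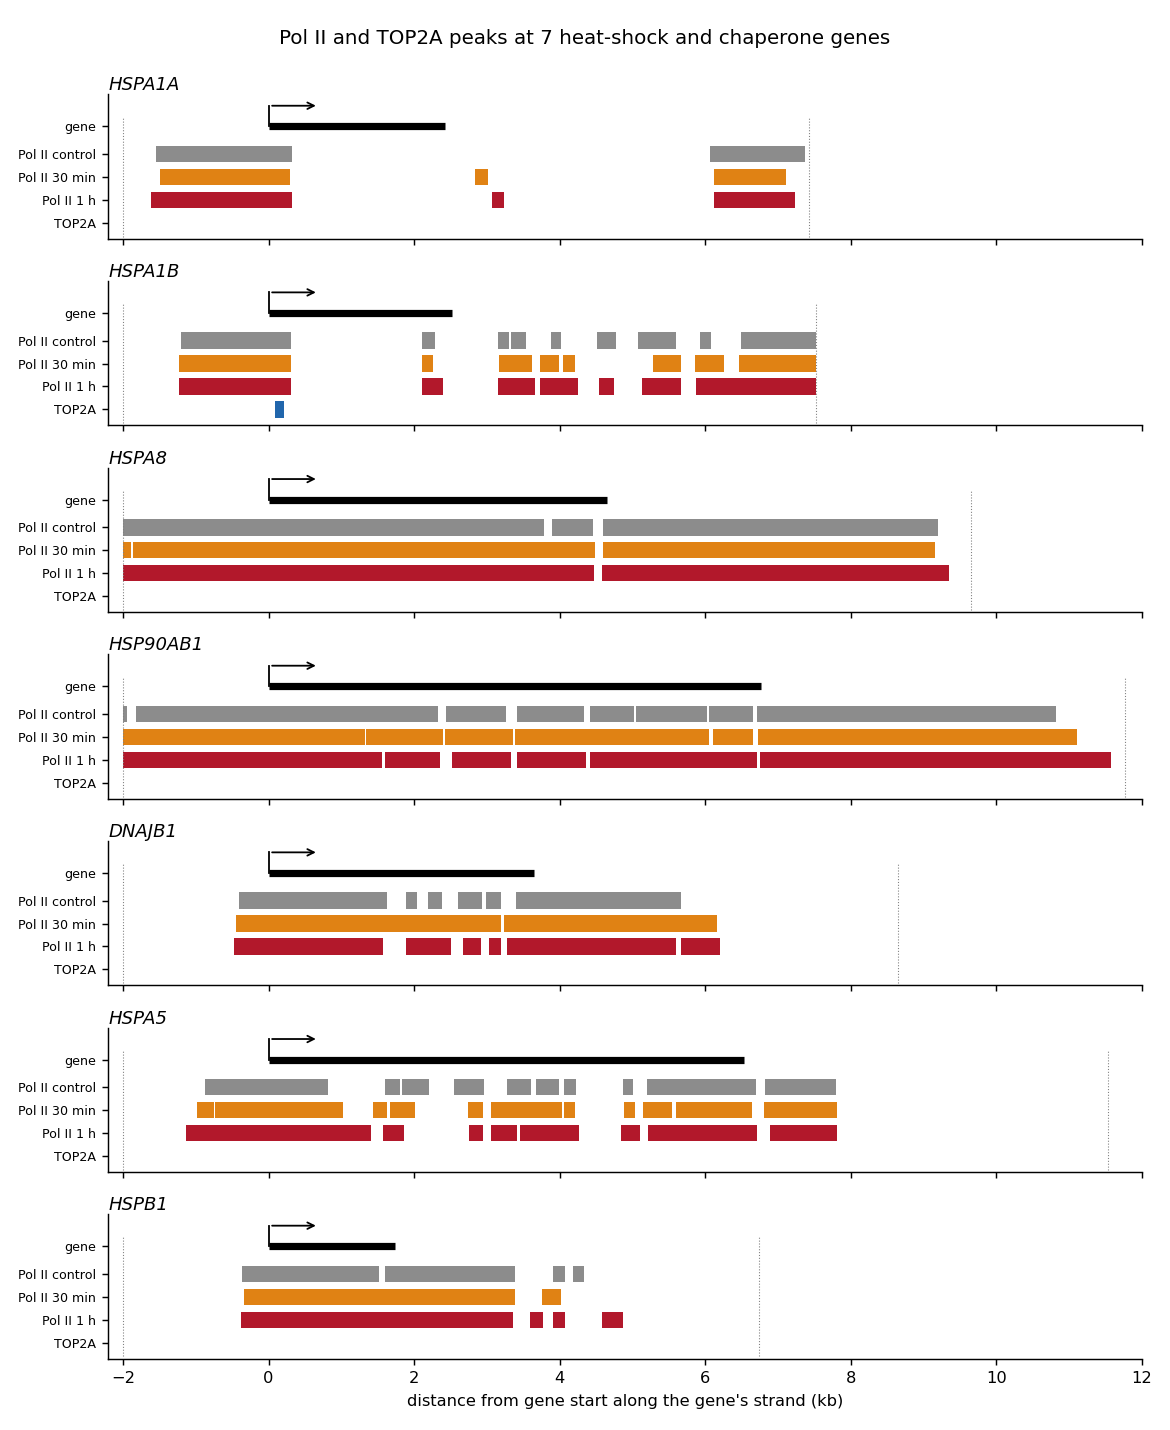
Peaks of the 4 lists at each gene, with distance from the gene start in kb along the gene's strand on the x axis. In each panel the rows from top to bottom are the gene, Pol II in control, at 30 min and at 1 h of merbarone, and TOP2A in untreated cells; dotted lines bound the window, and peaks that run past it are clipped. Peaks stood over every start in all 3 Pol II lists, the HSPA1A and HSPA1B spans were mostly bare, and the DNAJB1 span was nearly closed at 30 min only.

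Every start of the 7 genes lay under a Pol II peak in control, at 30 min and at 1 h. Starts of other genes were not placed on hg19 here, so this count has no background and is not read as a trait of these genes. Over the 300 bp on either side, cover was 100% in all lists at all genes except HSPA1A at 30 min, where it was 98.8%. The genes differed in how far cover went on from the start. In control, Pol II peaks covered 95.5% of the HSPB1 span, 94.7% of HSPA8, 93.2% of HSP90AB1, 75.2% of DNAJB1, 62.6% of HSPA5, 18.8% of HSPA1B and 13.1% of HSPA1A. Set among 36735 tiles of 5 kb with a control Pol II peak, the spans of HSPB1, HSPA8 and HSP90AB1 stood above 98.5%, 98.3% and 98.0% of tiles, and those of HSPA1B and HSPA1A above 56.7% and 44.2%. Spans and tiles differ in length, so these places are approximate.

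Merbarone was followed by more cover of at least 10 percentage points in the span of 1 gene, DNAJB1, at 30 min and of none at 1 h. The background was 13.8% of 41966 tiles of 5 kb with a peak in either list at 30 min and 26.6% of 45236 tiles at 1 h, so the members' count at 30 min stood near it. With like limits for every list (gaps of up to 37 bp closed, and no peak narrower than the smallest of the 1 h list), 2 spans passed at 1 h, DNAJB1 with 10.3 and HSPA5 with 10.0 points, and with peaks within 1 kb joined none passed at 30 min (0). The background with like limits was 29.7% of 5 kb tiles at 1 h, and none was computed with peaks joined. No span lost 10 points, against 4.32% of tiles at 30 min and 2.95% at 1 h. Among 4685 tiles at least 50% covered in control, which are closer to most of these genes, 17.8% gained and 13.4% lost that much at 30 min, and 35.7% gained and 7.32% lost at 1 h. Only 4 of the 7 spans had 10 points left to gain, since HSPB1, HSPA8 and HSP90AB1 were nearly full in control, and 2 of those 4 were HSPA1A and HSPA1B, where bare sequence cannot be told apart from reads that were left out. Without that pair 2 of 5 spans, DNAJB1 and HSPA5, had this room, and the median change was 4.04 points at 30 min and 4.54 at 1 h. Over all 7 spans the median change was 3.99 points at 30 min and 4.54 at 1 h, against 1.16 and 3.72 points over the tiles with a peak in either list. Over the tiles at least 50% covered in control the median was 0.98 points at 30 min and 5.3 at 1 h. The 1 h median of the spans thus lay above the first background and below the second.

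**Figure D2:**
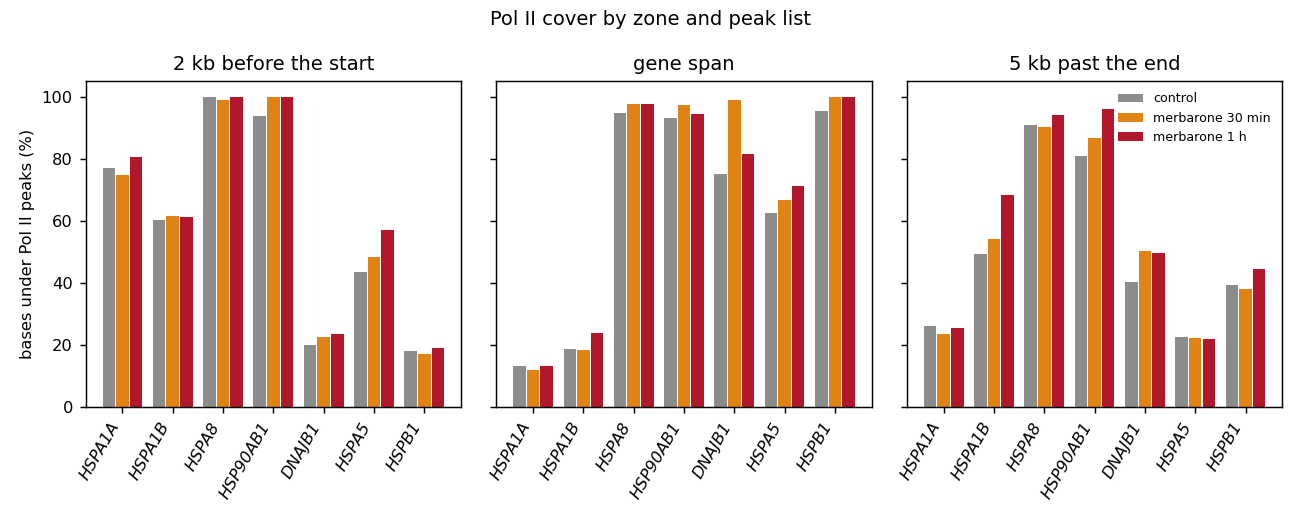
Percent of bases under Pol II peaks (y axis) for each gene in the 2 kb before the start, the gene span and the 5 kb past the end, with 1 bar per peak list in the order control, 30 min and 1 h; there are no error bars because each condition has 1 list. The tallest step in the gene span is DNAJB1, with 75.2% in control and 98.9% at 30 min, and the tallest past the end is HSPA1B at 1 h.

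HSPA1A and HSPA1B, the stress-inducible HSP70 genes that lie side by side on chromosome 6, encode nearly the same protein and could be read only in part. HSPA1A (hg19 chromosome 6, 31783291 to 31785719, + strand) was covered over 13.1% of its span in the control list, 12.1% after 30 min and 13.1% at 1 h. Its start peak ended 318 bp past the start in the control list, 293 bp after 30 min and 318 bp at 1 h, and the remaining 2110 bp of the span lay under no peak in any list. HSPA1B (31795512 to 31798031, + strand) was covered over 18.8%, 18.5% and 23.8% in that order, its start peak ended 302, 312 and 312 bp past the start, and 1789 bp after it lay under no peak in any list. The bare stretch thus began at nearly the same distance in both copies and in all lists. The sources used here do not say how reads that map to both copies were treated, so bare sequence within this pair cannot be told apart from reads that were left out, and low cover there is not read as little Pol II.

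Before their starts the pair was well covered. The 2 kb before HSPA1A lay under peaks over 77% in the control list, 74.8% after 30 min and 80.5% at 1 h, as 1 peak running through the start from 1541, 1495 and 1609 bp before it. The gene next to HSPA1A on that side in RefSeq is HSPA1L, a testis-expressed HSP70 gene. HSPA1L was not placed on hg19, so the peak is not divided between them. The 2 kb before HSPA1B was covered over 60.3%, 61.5% and 61.2%. The lists thus differed little at both starts.

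Past HSPA1B, cover was larger in both merbarone lists than in control. In the 5 kb past its end Pol II peaks covered 49.3% in the control list, 54.1% after 30 min and 68.4% at 1 h, which was 19.2 points more at 1 h than in control. Between 633 and 1729 bp past the end, the small peaks were 142, 216 and 143 bp wide in control. They were 459, 255 and 162 bp wide at 30 min, and 509 and 522 bp at 1 h. Farther on, widths went both ways. A control peak of 259 bp had no counterpart at 30 min and was 202 bp wide at 1 h. The next, of 525 bp in control, was 386 bp at 30 min and 537 bp at 1 h. The peak after it, of 154 bp in control, was 390 bp at 30 min and lay in the widest peak at 1 h. Widths of single peaks are not like for like between lists. The widest peak of the window began 3976, 3948 and 3349 bp past the end in the 3 lists and was 2373 bp wide in the control list, 8385 bp after 30 min and 9146 bp at 1 h (31801380 to 31810525). Most of that width was already under peaks in control, where 4 peaks covered 93.7% of the 1 h peak, so the wider peak was mainly a closing of gaps. With peaks within 1 kb joined, the 19.2 points at 1 h became 0. The next gene in RefSeq on that side is SNHG32, a noncoding host of small nucleolar RNAs. It was not placed on hg19, so its share of this cover, if any, is not known. Past HSPA1A, by comparison, cover was 26.1% in the control list, 23.5% after 30 min and 25.6% at 1 h.

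HSPA8 encodes the constitutive HSP70 of the cytosol, which among other tasks strips clathrin from vesicles, and its introns carry the small nucleolar RNAs SNORD14C, SNORD14D and SNORD14E. Its span (chromosome 11, 122928200 to 122932844, - strand) was covered over 94.7% in the control list, 97.6% after 30 min and 97.7% at 1 h. The peak over its start was among the widest of each list, with 7318 bp in control (rank 101), 6347 bp at 30 min (rank 252) and 9278 bp at 1 h (rank 213, from 122928368 to 122937645). In control that peak ended 3782 bp past the start and a second of 566 bp followed. At 30 min and 1 h the peak ran on unbroken to 4481 and 4476 bp. On the other side, a further 30 min peak of 1639 bp (122934734 to 122936372) lay close beside the start peak, which ended at 122934709. The break between them was shorter than any gap of the 1 h list (38 bp or more), so the smaller width at 30 min is not read as a narrower region. The 2 kb before the start was covered over 100%, 98.8% and 100%, and the 5 kb past the end over 91%, 90.3% and 94.1%.

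A gap of 104 bp near the end of HSPA8 was bare in all 3 lists, ending 59 bp before the annotated end. The peak beyond it began 50 bp before the gene end in control and at 30 min and 58 bp before it at 1 h, and was 4600, 4374 and 4764 bp wide. HSP90AB1 showed a break at nearly the same place, with the downstream peak beginning 51 bp before the gene end in the control list, 37 bp after 30 min and 18 bp at 1 h. That break shifted between lists, and only 6 bp of it was bare in all 3. At DNAJB1 the last shared gap, of 37 bp, ended 422 bp before the gene end.

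HSP90AB1 encodes the constitutive HSP90 beta. Its span (chromosome 6, 44214848 to 44221614, + strand) was covered over 93.2% in the control list, 97.2% after 30 min and 94.4% at 1 h. It was cut into 10 peaks in control and 6 each at 30 min and 1 h. These counts are not like for like, since no gap of the 1 h list is under 38 bp. Several of the control breaks were shorter than that, such as the break between 44216655 and 44216659. Fewer pieces with merbarone are therefore not read as merging. The start peak was 3631, 3556 and 3700 bp wide in the 3 lists, and the 2 kb before the start was covered over 93.9% in control and 100% at both times. Past the end cover was 80.9% in the control list, 86.8% after 30 min and 96% at 1 h, or 15.1 points more at 1 h than in control. This was 1 peak, wider at its far edge, of 4098 bp in the control list, 4377 bp after 30 min and 4821 bp at 1 h (44221596 to 44226416). SLC35B2, a sulfate-donor transporter gene, is the next gene there in RefSeq, and whether the edge lies within it was not examined, since that gene was not placed on hg19.

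DNAJB1, the HSP40 partner of HSP70, had the largest span change of the 7 genes. Its span (chromosome 19, 14625580 to 14629232, - strand) was covered over 75.2% in the control list, 98.9% after 30 min and 81.5% at 1 h, that is 23.7 points more at 30 min than in control and 6.32 points more at 1 h than in control. At 30 min a single peak of 3644 bp ran from 452 bp before the start to 3191 bp past it (14626041 to 14629684). In control the same stretch held 5 peaks, which covered 79.2% of it, and at 1 h it held 4, which covered 83.7%. Of the span's bases, 457 (12.5%) lay under a peak at 30 min alone, 411 (11.3%) at both merbarone times and not in control, and none at 1 h alone. The gaps filled at 30 min were short: with peaks within 1 kb of each other joined, the difference between 30 min and control was 0 points.

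On the start side of DNAJB1 the lists differed little. The start peak reached 399 bp before the start in the control list, 452 bp after 30 min and 470 bp at 1 h, and the 2 kb before the start was covered over 20%, 22.6% and 23.5%. Past the end cover was 40.3%, 50.1% and 49.5%, so both merbarone lists stood 9 to 10 points above control (9.8 points at 30 min and 9.14 at 1 h), just short of the limit. The added bases there lay at the far edge, where the peaks ended 2017 bp past the gene end in the control list, 2509 bp after 30 min and 2546 bp at 1 h. GIPC1 is the next gene there in RefSeq. It was not placed on hg19, so whether cover past the end reaches it was not examined. TECR overlaps the longest RefSeq form of DNAJB1, and where that overlap lies was not placed on hg19.

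HSPB1 encodes HSP27, a small heat-shock protein that binds unfolded proteins and actin. Its span (chromosome 7, 75931875 to 75933614, + strand) was covered over 95.5% in control and 100% at both merbarone times. The control list had 2 peaks over it, of 1882 and 1780 bp, split by a gap of 79 bp, and each merbarone list had 1, of 3732 bp at 30 min (75931532 to 75935263) and 3737 bp at 1 h (75931492 to 75935228). The outer edges differed little, lying 360, 343 and 383 bp before the start and 1641, 1649 and 1614 bp past the gene end in control, at 30 min and at 1 h. Cover in the 5 kb past the end was 39.2% in the control list, 38.1% after 30 min and 44.5% at 1 h. The 1 h difference of 5.3 points, which is also the median of the 7 genes, rested on small separate peaks, and was -0.54 points with peaks of at least 300 bp and 10.6 with peaks within 1 kb joined. The next gene there in RefSeq is FPASL, a long noncoding RNA gene.

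HSPA5 encodes BiP, the HSP70 of the ER lumen. Its span (chromosome 9, 127997132 to 128003666, - strand) was covered over 62.6% in the control list, 66.7% after 30 min and 71.1% at 1 h, in 10, 9 and 7 peaks. The cover was patchy and placed differently in each list: 51.2% of the bases lay under all 3 lists, 16.6% under none, 6.18% under control alone, 8.49% under 1 h alone and 9.33% under both merbarone lists and not control. The start peak had both its edges farthest out at 1 h, from 868 bp before the start to 815 bp past it in control, from 734 bp before to 1018 bp past at 30 min, and from 1140 bp before to 1402 bp past at 1 h (128002264 to 128004806). At 30 min another peak, of 234 bp, lay close beside it and began 976 bp before the start.

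The 2 kb before HSPA5 was covered over 43.4% in the control list, 48.4% after 30 min and 57% at 1 h. The difference at 30 min rested on the peak of 234 bp that lay close beside the start peak. It was 5.4 points with like limits for every list. With peaks of at least 300 bp, which leaves that small peak out, it was -6.7 points in place of 5. At 13.6 points between 1 h and control, HSPA5 was the 1 gene of the 7 with an upstream difference of at least 10 points. The median upstream difference was 1.2 points at 30 min and 3.4 points at 1 h, against 1.9 and 7.95 points over 2 kb tiles with a peak in either list. Of those tiles 25.3% gained 10 points and 12.3% lost them at 30 min, where no member did either, and 41.4% gained and 8.33% lost them at 1 h. Only 5 of the 7 upstream zones had 10 points left to gain. The tiles also include some with no control peak, which can only gain, so the shares are not like for like. HSPA5-DT, a noncoding RNA gene, is the next gene on that side in RefSeq. Past the end of HSPA5 cover was 22.6% in the control list, 22.4% after 30 min and 22.1% at 1 h, and the next gene there is RABEPK.

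**Figure D3:**
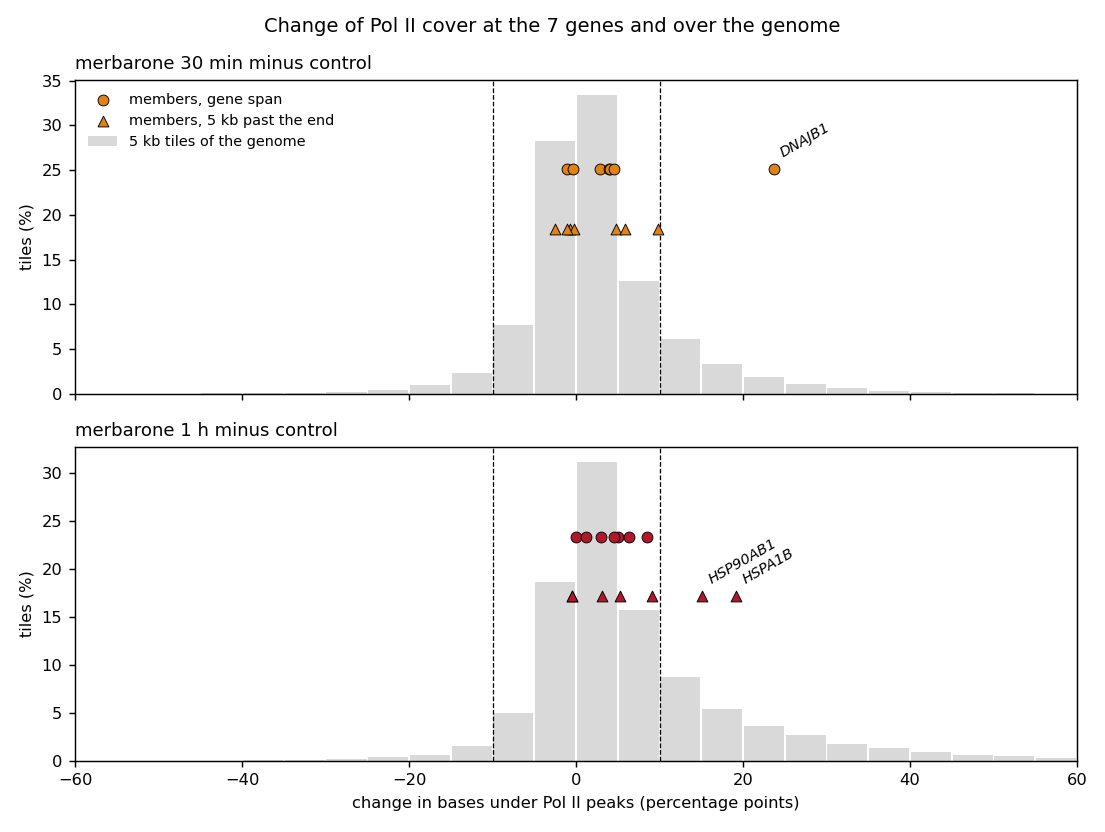
Change of Pol II cover in percentage points (x axis) at 30 min minus control and at 1 h minus control, for 5 kb tiles with a peak in either list (grey bars, percent of tiles on the y axis, bins of 5 points) and for the 7 genes (circles, gene span; triangles, 5 kb past the end; their height has no meaning). Dashed lines mark 10 points in either direction, tiles beyond 60 points are not drawn, and the genes past the lines are DNAJB1 at 30 min and HSP90AB1 and HSPA1B at 1 h.

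Over the 5 kb past the ends, none of the 7 genes differed from control by 10 points at 30 min. At 1 h, 2 genes, HSPA1B and HSP90AB1, had at least that much more cover than in control and none had that much less. The share of 5 kb tiles with such a gain was 13.8% at 30 min and 26.6% at 1 h, so the members' counts stood below or near the background. The 30 min count turned on HSPA1B, whose difference of 4.82 points became 10.2 with like limits, 14.8 with peaks of at least 300 bp and -21.5 with peaks within 1 kb joined. The last of these settings also changed which genes passed at 1 h, to HSP90AB1 (15.1 points), DNAJB1 (10.6) and HSPB1 (10.6). No background of tiles was computed with peaks of at least 300 bp or with peaks joined. The median change was -0.22 points at 30 min and 5.3 points at 1 h, against 1.16 and 3.72 points over the tiles. HSPA8 had under 10 points left to gain.

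How far Pol II ran on past each gene end was read as the distance to the end of the last peak reached without a gap of more than 500 bp. For HSP90AB1 this reach was 4046 bp in the control list, 4339 bp after 30 min and 4802 bp at 1 h. For DNAJB1 it was 2017, 2509 and 2546 bp, and for HSPB1 1641, 2275 and 2332 bp. HSPA8 differed less, at 4549, 4516 and 4705 bp, and HSPA5 hardly at all, at 1259, 1281 and 1280 bp. HSPA1A had a reach of 586 bp at 30 min and 0 in the other lists, and HSPA1B of 0 in all 3. The 0 of HSPA1B does not show that Pol II stopped there, since its first downstream peaks began 638, 648 and 633 bp past the end, beyond the gap allowed. With gaps of up to 1 kb its reach was 15614 bp in the control list, 1686 bp after 30 min and 15422 bp after 1 h. The value for HSPA1A rested on 1 peak of 183 bp that began 404 bp past the end, while the like peak at 1 h began 646 bp past it, beyond the gap allowed. The reach at HSPB1 rested on small separate peaks of at most 258 bp; the control list had such a peak too, which began 2169 bp past the end and lay just beyond the gap allowed. With gaps of up to 1 kb the HSPB1 difference between 30 min and control was -322 bp. With gaps of no more than 37 bp the difference between 1 h and control was -27 bp at HSPB1 and -75 bp at DNAJB1, so a longer reach at these genes depended on the gap allowed. No other gene ends were placed on hg19 here, so these reaches have no background.

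**Figure D4:**
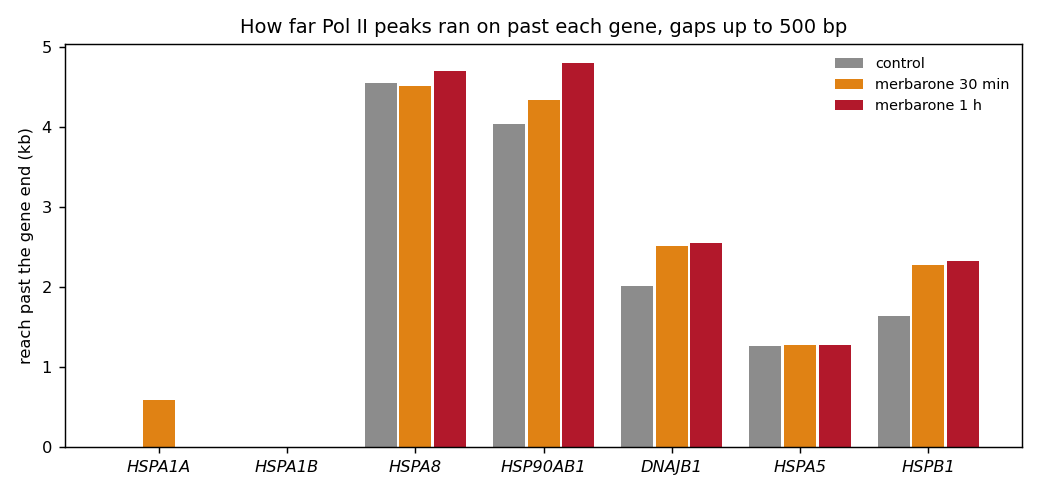
Reach of Pol II past the end of each gene (y axis, kb) in control, at 30 min and at 1 h, from left to right, as the distance to the end of the last peak reached with gaps of up to 500 bp. HSP90AB1 had a reach of 4046 bp in the control list, 4339 bp after 30 min and 4802 bp at 1 h, and HSPA5 stayed within 22 bp of control. The reach can run into a neighbouring gene.

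A TOP2A peak was listed at 1 of the 7 genes, HSPA1B. A peak of 130 bp lay from 88 to 217 bp past the HSPA1B start, inside the Pol II start peak of all 3 lists and before the bare stretch of that gene. Among 5 kb tiles with a control Pol II peak, 3.57% held a TOP2A peak; the gene windows were longer than a tile, at 8740 to 13767 bp, so this share is not like for like. HSPA1A is a near copy of HSPA1B, so a peak at one and none at the other carries the same doubt about reads that map to both. The same peak was the nearest to HSPA1A, 9881 bp from its span. At the other 5 genes the nearest TOP2A peak was 373 kb (HSPA5), 442 kb (DNAJB1), 1170 kb (HSP90AB1), 1495 kb (HSPB1) or 1638 kb (HSPA8) away, although HSPA8, HSP90AB1 and HSPB1 were among the most fully covered by Pol II. No list of TOP2A after merbarone was used here.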

How the data were processed

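Reads were aligned with Bowtie 1.2.0 and peaks called with MACS2 on hg19, with deepTools 2.4.1 also used, per the submitters' processing notes. The sources used here do not give the peak threshold, the background library or how replicates were pooled. The deposited values are peak starts and ends in bp, 1 list per condition, read as counted from 0 and printed counted from 1. The 3 IgG libraries have no list here and were not analysed.

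Gene spans on hg19 were taken as given with the gene list; their lengths differed from RefSeq's on GRCh38.p14 by 3 to 120 bp, most at HSPB1, and RefSeq served only for names, neighbours and promoter sequence. The members and measures were chosen with earlier results of these data known. Cover is the percent of bases under peaks in the 2 kb before the start, the span and the 5 kb past the end, and 10 percentage points was the limit for counting a change, chosen as a size and not a test. All 7 genes are named, and other chaperone genes were not counted, since no hg19 annotation was at hand. For the background the genome was cut into tiles of 5 kb (2 kb for upstream). The interval functions gave the right answer in all of 300 covers and 100 joins set against bedtools 2.31.1 and in 200 planted reaches. Python 3.11.15, numpy 2.4.6, pandas 2.3.3, Biopython 1.88 and matplotlib 3.10.9 were used.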

Additional observations from a re-analysis of the deposited data

How the results depend on the processing

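Of 95 recomputed counts over the 7 genes, 17 moved by more than 1.5 times; of the other 78, 52 were 0 and stayed 0 and 9 were starts at 7 of 7, so they say little about stability. Of 238 values of single genes, 82 moved (by more than the half-width of the 95% Wilson interval of the cover, or by over 100 bp of reach) and 3 called ones reversed, and 17 in all had the opposite sign. With like limits for every list (gaps of up to 37 bp closed, and no peak narrower than the smallest of the 1 h list), spans higher by 10 points at 1 h numbered 2 (DNAJB1 and HSPA5) and downstream zones higher at 30 min 1; the background was then 15.9% of 5 kb tiles at 30 min and 29.7% at 1 h (this background was added after seeing the data). With only peaks of at least 300 bp, spans higher numbered 2 at 30 min and 2 at 1 h, and downstream zones higher at 30 min 1. No background was computed for this setting or with peaks within 1 kb joined, so those counts have none beside them. With peaks within 1 kb joined, no span was higher at 30 min (0), because DNAJB1 was then full in control too, and 1 downstream zone, HSPA1B, was lower at 30 min; at 1 h 3 downstream zones were then higher, HSP90AB1, DNAJB1 and HSPB1, and HSPA1B was not. At a limit of 20 points no downstream (0) or upstream (0) zone was higher at 1 h, and DNAJB1 at 30 min was the one change left. With 2 kb past the end, 1 downstream zone was higher at 30 min and 1 at 1 h; with 1 kb before the start, 1 upstream zone was higher at 30 min. Reach was over 100 bp longer than in control at 4 genes at each time. With gaps up to 1 kb it was that much longer at 3 genes at 30 min and 5 at 1 h. It was then shorter by as much at 2 genes at 30 min and 1 at 1 h, and HSPB1 at 30 min turned to -322 bp. With gaps up to 37 bp it was longer at 2 genes at 30 min and 2 at 1 h. At 1 h DNAJB1 then turned to -75 bp and HSPB1 to -27 bp. With TOP2A peaks within 10 kb of the span, 2 genes had one, since HSPA1A then takes in the peak at HSPA1B. Leaving out HSPA1A and HSPA1B (chosen after seeing the data) changed no count of spans, and could not have, since neither span differed from control by 10 points. No paired analysis was possible because each condition has 1 list, and for the same reason no replicate could be left out. Depth is unknown and peaks carry no height, so a stronger signal within a peak could not be seen.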
